A study of Homo sapiens with 7 samples.

Results

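The 86 genes described here encode the proteins of the cytosolic ribosome and the factors that drive it along an mRNA. They were taken by name from the gene tables: every RPL and RPS symbol with a number and at most a short suffix, RPLP0, RPLP1, RPLP2, RPSA, EEF1A1, EEF1B2, EEF1D, EEF1G and EEF2, with at least 15 counts summed over the 7 libraries. Of 26364 gene symbols in the tables, 87 matched the name and 86 reached the threshold. The 86 comprise 49 large subunit genes, 32 small subunit genes and 5 elongation factor genes. RPL3L, with 3 counts in all, was the only match left out, and RPL10L, with 56 counts, was the lowest inside. All 86 passed the filter on low counts that precedes the tests (10 counts in enough libraries), so no member was lost to it.

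A growing cell spends much of its transcription on these genes. RPL genes encode proteins of the large subunit, which joins amino acids, and RPS genes those of the small subunit, which reads the mRNA. EEF1A1 brings aminoacyl-tRNA to the ribosome, EEF1B2, EEF1D and EEF1G form the exchange complex that recharges it with GTP, and EEF2 moves the ribosome to the next codon. Most of these mRNAs start with a C followed by an unbroken run of pyrimidines, the 5′ terminal oligopyrimidine (TOP) tract, through which mTOR and LARP1 control their translation.

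The libraries came from U937, a human monocytic leukaemia line. The MT line (labelled parental) and the B412 line, which expresses the PLZF/RARA fusion of acute promyelocytic leukaemia, were both grown with 0.1 mM ZnSO4, the agent used to express the fusion in B412. MT_mock (n = 3) is MT in zinc without inhibitor, B412_mock (n = 2) is B412 in zinc without inhibitor, and B412_GSK126 (n = 2) is B412 in zinc with 2.5 µM GSK126, a small molecule that blocks the methyltransferase EZH2. The protocol gives B412 cells 24 h of zinc before 96 h of zinc with GSK126. The labels give no separate schedule for MT. There was no library without zinc and none of MT with GSK126, and each genotype was represented by 1 line, so the fusion and any other difference between the lines cannot be told apart. The labels do not say whether libraries of a group came from separate cultures. The p-values below therefore measure only the spread between these libraries.

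Total gene counts ran from 12736244 to 14848130 per library. The 7 libraries fell into 2 sets along the main axis of variation of all other tested genes, which held 65.6% of the variance. Set 1 holds replicate 1 of every group and, in addition, replicate 2 of MT_mock. Set 2 holds replicate 2 of either B412 group together with replicate 3 of MT_mock. The labels record nothing that would explain the sets, which are a description of the counts, and values that compare them carry no test. ZBTB16, the gene of the PLZF portion of the fusion, was counted 22 and 28 times in the B412_mock libraries, 7 and 36 times with GSK126, and 4, 0 and 0 times in MT_mock. CPM are the counts of a gene scaled to a library total of 1000000. The 14 myelomonocytic markers summed to 3855 to 8128 CPM in MT_mock, 2477 to 3678 in B412_mock and 3121 to 5802 in B412_GSK126. MPO, AZU1 and CTSG held most of each sum, so these ranges mainly follow those genes. Of the other markers, CEBPA was at 166.7 to 248.3 CPM, SPI1 at 81.5 to 146.4 and ELANE at 18.7 to 305.4. CD33, CD68 and ITGAM lay between 7.84 and 63.4 CPM. CD14, CSF1R, PRTN3 and FCGR1A were low. CD14 was at 0 in 5 of 7 libraries, CSF1R reached at most 0.668 CPM, PRTN3 1.03 and FCGR1A 2.51. LYZ was at 9.89 to 40.2 CPM. The 6 erythroid and megakaryocyte markers summed to at most 9.58 CPM, the 8 fibroblast and epithelial markers to at most 4.01 CPM, and the 8 T, B and NK markers to between 47.5 and 104.7 CPM, nearly all from CD79A and NKG7. In bulk RNA, fewer cells of a type and less RNA per cell cannot be told apart.

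The start sites show the feature these genes share. RefSeq promoter entries (GRCh38.p14, 250 bases before to 50 after the start) were matched by symbol for 69 of the 86 genes. A TOP tract, defined as a C within 2 bases of an annotated start followed by at least 4 unbroken C or T on the sense strand, was present in 53 of the 69, or 76.8%, against 13% of all 27305 genes in that table. The lines below show 15 bases on either side of the start for genes on which the results turn, with the tract in capitals: genes that differed between the library sets, then RPS27, shown for its paralogue RPS27L and with a set difference of only 0.15, and last the genes whose annotated start carries no tract, which are all in lower case. In most of the windows with a tract its first base is the start base itself. The window of RPL3 has it at the base before the start, and that of RPS28 at the base after it. The coordinates are those of GRCh38.p14 and not of hg19, the build the submitters' processing notes name.
EEF2, chr19:3985449-3985478, minus strand: gttgacgtcagcgttCTCTTCCgccgtcgt
EEF1A1, chr6:73521018-73521047, minus strand: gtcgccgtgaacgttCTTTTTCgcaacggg
RPL3, chr22:39319609-39319638, minus strand: gtaaggccgaccggCCTCTaccggcgggat
RPS25, chr11:119018329-119018358, minus strand: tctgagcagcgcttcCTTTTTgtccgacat
RPS28, chr19:8321481-8321510, plus strand: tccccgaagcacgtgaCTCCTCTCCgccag
RPL21, chr13:27251543-27251572, plus strand: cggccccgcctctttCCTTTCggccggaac
RPL39, chrX:119791616-119791645, minus strand: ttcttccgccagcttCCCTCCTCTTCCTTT
RPS19, chr19:41860240-41860269, plus strand: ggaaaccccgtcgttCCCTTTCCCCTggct
RPLP2, chr11:809952-809981, plus strand: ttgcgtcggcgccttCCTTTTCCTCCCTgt
RPL36A, chrX:101390996-101391025, plus strand: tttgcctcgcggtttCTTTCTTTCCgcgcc
RPS27, chr1:153990747-153990776, plus strand: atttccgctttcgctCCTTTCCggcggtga
RPL36AL, chr14:49620612-49620641, minus strand: ctgtttcttccctttcctgttaggcgagag
RPS27L, chr15:63157463-63157492, minus strand: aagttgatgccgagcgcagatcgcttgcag
RPL10L, chr14:46651767-46651796, minus strand: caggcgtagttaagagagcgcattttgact

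Genes at opposite ends of the difference between the library sets, EEF2 and RPS28, both carry the tract. The paralogue pairs RPS27 and RPS27L, and RPL36A and RPL36AL, differ in it by the definition above. The RPS27 and RPL36A entries have a tract, and the RPS27L and RPL36AL entries have none. The RPL36AL window does hold a run of pyrimidines across its start, which does not meet the definition. The 16 matched genes without a tract were EEF1G, RPL4, RPL6, RPL9, RPL10A, RPL10L, RPL15, RPL17, RPL27, RPL36AL, RPS4X, RPS7, RPS15, RPS26, RPS27L and RPS29. An annotated start can lie a few bases from the start used in these cells, and the data hold no measurement of start sites. Other motifs were searched on both strands of the 300-base entries. The ETS core CCGGAA was in 56.5% of the members against 20.1% of all genes, the GC box GGGCGG in 62.3% against 48.3%, the YY1 core AANATGG in 24.6% against 18.6%, the TATA box TATAAA in 10.1% against 14%, and the E box CACGTG in 5.8% against 8.77%. The ETS core can overlap a TOP tract that ends in TTCCGG.

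Many of the 86 genes were among the most abundant mRNAs of these cells. Together the 86 took 11.3% to 12.4% of all gene counts in the set 1 libraries and 8.1% to 10.2% in the set 2 libraries. Of the 50 genes with the highest mean CPM, 27 were members, and of the top 200, 57 were. Levels between genes are compared here only per kb of coding sequence of the principal GENCODE v29 isoform, the longest where several rank equally. The isoforms used in these cells were not measured, and the untranslated parts of the mRNAs are not in that length. On that scale the median was 1748 CPM per kb over the 49 large subunit genes and 2142 over the 32 small subunit genes, and it was 729 over the 5 elongation factors. RPLP1, an acidic stalk protein that helps recruit elongation factors, was the highest of all at 8647 CPM per kb, followed by RPL36, RPL38 and RPLP2 at 6759, 6637 and 6570. RPS14 led the small subunit at 5820, ahead of RPS3 at 5305. Over the 7 libraries EEF2 was the highest elongation factor at 2472 and EEF1B2 the lowest at 476, but neither set had this order. In set 1 EEF1G was the highest at 1007, ahead of EEF2 at 949.9, and EEF1A1 the lowest at 352.2. In set 2 EEF2 was the highest at 4501 and EEF1D the lowest at 265.5. Among all members RPLP1 led in set 2 as well, at 5972, with RPL11 and RPL8 next at 5212 and 5210.

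**Figure D1:**
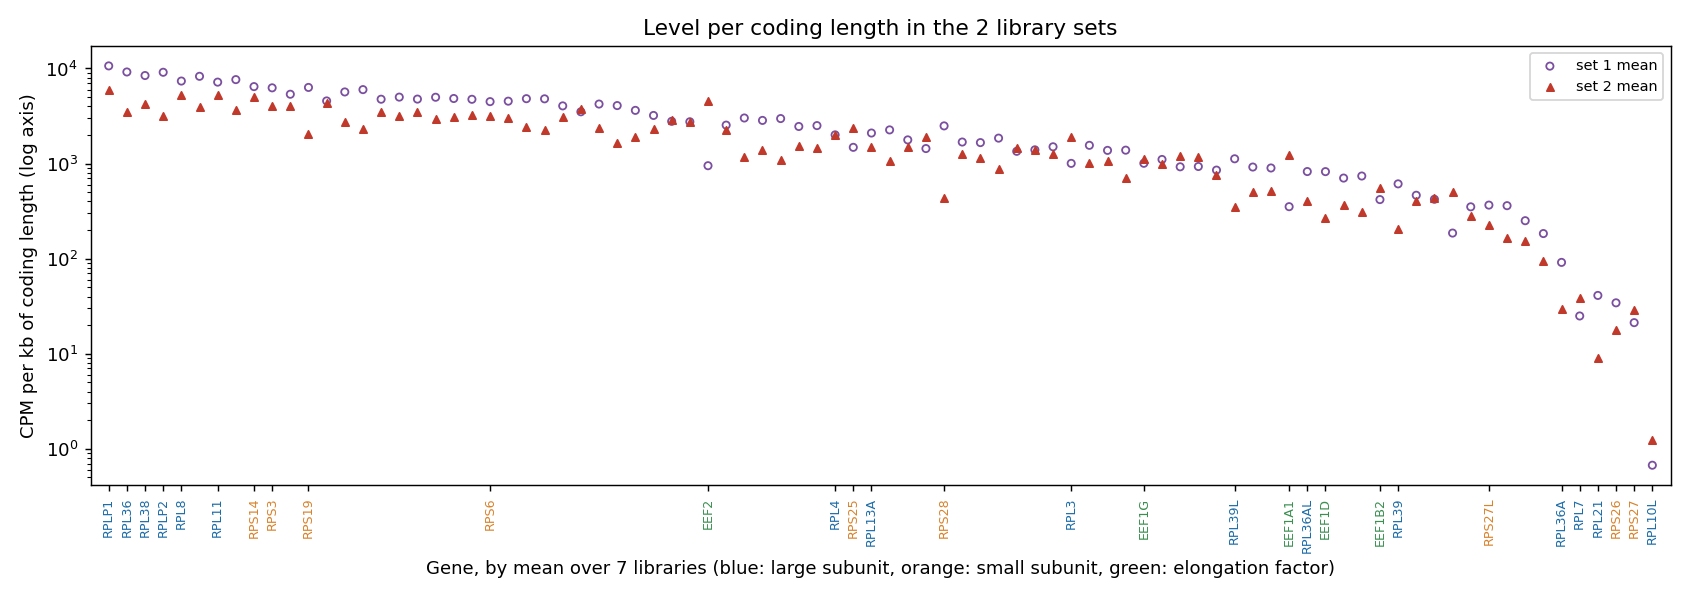
Level of each of the 86 genes in CPM per kb of coding length (log axis), as the mean of the 4 set 1 libraries (circles) and of the 3 set 2 libraries (triangles), ordered by the mean over 7 libraries from RPLP1 at 8647 to RPL10L at 0.911, with names shown for some genes. Most triangles lie below their circles, and those of EEF2, EEF1A1 and RPL3 lie above.

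At the low end of the order, RPS27, RPS26, RPL21 and RPL7 were listed at 24.4, 27.2, 27.3 and 30.9 CPM per kb, and RPL36A at 64.9, far below the median of their subunits. These genes have many near-identical processed copies: GENCODE v29 annotates 15, 30, 66, 61 and 19 pseudogenes named after them. Other members with many named pseudogenes had higher levels. RPL23A, with 91, was at 735.5 CPM per kb and RPSA, with 74, at 741.7. RPS12 and RPL30, with 15 each, were at 3780 and 4473. Across the 86 genes, log2 CPM per kb and the number of named pseudogenes had a Pearson r of -0.361 and a Spearman rho of -0.404, a description across genes with no test. How the authors' counting treated reads that map to several places is not given in the sources used here, so the levels of these genes are uncertain. The tables list 31 pseudogene symbols of the family, among them RPL13AP5 with 7403 to 12474 counts per library and RPL21P28, whose counts of 389, 221, 48, 262, 65, 228 and 59 were within 1 count of those of RPL21 in every library. Readthrough symbols held reads as well: RPL17-C18orf32 had 21496 counts over the 7 libraries, RPS10-NUDT3 had 14985 and RPL36A-HNRNPH2 had 3957. RPL10L, an autosomal copy of X-linked RPL10 known for its role in the testis, had 4 to 13 counts per library and 0.911 CPM per kb.

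Between the library sets these genes differed far more than between the study's groups. The median difference of set 2 minus set 1, averaged over the 3 groups, was -0.80 on the log2 CPM scale over the 86 genes, against 0.05 over all 13521 genes tested. It was -0.75 over the large subunit, -0.88 over the small subunit and 0.19 over the elongation factors. Of the members, 74 were lower in set 2 and 12 higher, where 6534 of all tested genes were lower and 6987 higher. The sign was the same in all 3 groups in 80 members and in 10625 of all 13521 genes. In 55 of the 86 every set 2 library lay below every set 1 library, where 24.8% of all tested genes did so, and in 8 every set 2 library lay above, against 35.3% of all genes. The 8 were EEF1A1, EEF2, RPL3, RPL5, RPL7, RPL15, RPS2 and RPS25. With counts scaled by library totals only, the medians were -0.62 for the members and 0.22 for all genes.

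**Figure D2:**
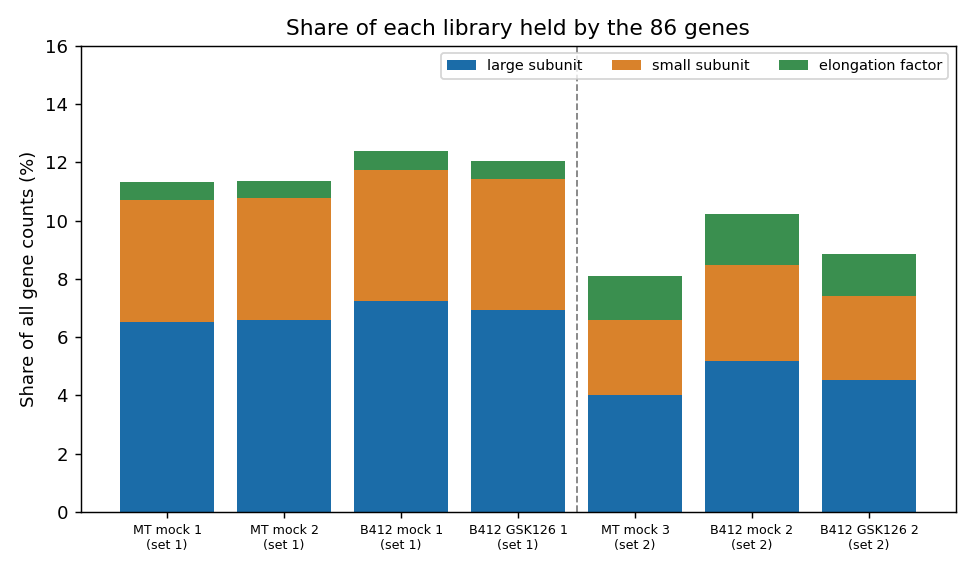
Share of all gene counts (%) held by large subunit, small subunit and elongation factor genes in each of the 7 libraries, with set 1 left and set 2 right of the dashed line. The whole bars run from 11.3% to 12.4% in set 1 and from 8.1% to 10.2% in set 2, and the elongation factor part is larger in set 2.

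EEF2, the translocase, had the largest positive difference. Its levels were 2369, 2448 and 11300 CPM in MT_mock, 2539 and 12820 in B412_mock, and 2424 and 10640 in B412_GSK126. The third MT_mock library and the second library of both B412 groups stood at more than 4 times the others, with a fold of 4.16 between sets. EEF2 alone was 0.237% to 0.254% of the counts in set 1, where RPL8 led the members and EEF2 ranked 14 or 15, and 1.06% to 1.28% in set 2, where it ranked 1. EEF1A1 followed the same split with 581, 404 and 1723 CPM in MT_mock, 442 and 1875 in B412_mock, and 525 and 1520 in B412_GSK126. RPL3, a core protein next to the catalytic centre of the large subunit, had 1156, 1006 and 2090 CPM in MT_mock, 1254 and 2581 in B412_mock, and 1444 and 2224 in B412_GSK126.

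EEF1D was lower in set 2, unlike its partners in the exchange complex, which were nearly level. It had 1462, 1442 and 412.5 CPM in MT_mock, 1813 and 573 in B412_mock, and 1674 and 560.5 in B412_GSK126, a set difference of -1.86. EEF1G, by contrast, stayed between 1247 and 1628 CPM in all 7 libraries with a set difference of -0.02, and EEF1B2 had 0.19. The 5 elongation factors thus spanned 2.06 to -1.86, beside 2.06 to -2.75 for all members.

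RPS28, one of the shortest small subunit proteins, had the lowest set difference at -2.75, a 6.72-fold lower level. Its CPM were 438, 509 and 71.6 in MT_mock, 596 and 102.4 in B412_mock, and 519 and 94.7 in B412_GSK126. RPL21 followed at -2.29, RPL39L at -1.91 and RPL36A at -1.87. RPS19, a small subunit protein mutated in Diamond-Blackfan anaemia, had 2855, 2864 and 810 CPM in MT_mock, 2712 and 980 in B412_mock, and 2569 and 908 in B412_GSK126. In all of these genes the 3 set 2 libraries were below every set 1 library.

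The most abundant ribosomal protein mRNAs were lower in set 2 as well. RPL8 had 5499, 5813 and 3594 CPM in MT_mock, 5912 and 4128 in B412_mock, and 5533 and 4329 in B412_GSK126, a set difference of -0.69. RPS3, which lines the mRNA entry channel, had 4599, 4597 and 2640 CPM in MT_mock, 4621 and 3228 in B412_mock, and 4441 and 2945 in B412_GSK126, a difference of -0.82. RPS6, the small subunit protein phosphorylated by S6 kinase, had 3214, 3076 and 1978 CPM in MT_mock, 3521 and 2752 in B412_mock, and 3588 and 2390 in B412_GSK126. In none of these 3 genes did the sets overlap. Other abundant members had set differences of -0.57 for RPS14, -0.63 for RPL11, -1.06 for RPLP1, -1.24 for RPL13 and -1.29 for RPL28, and the sets did not overlap in any of them.

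**Figure D3:**
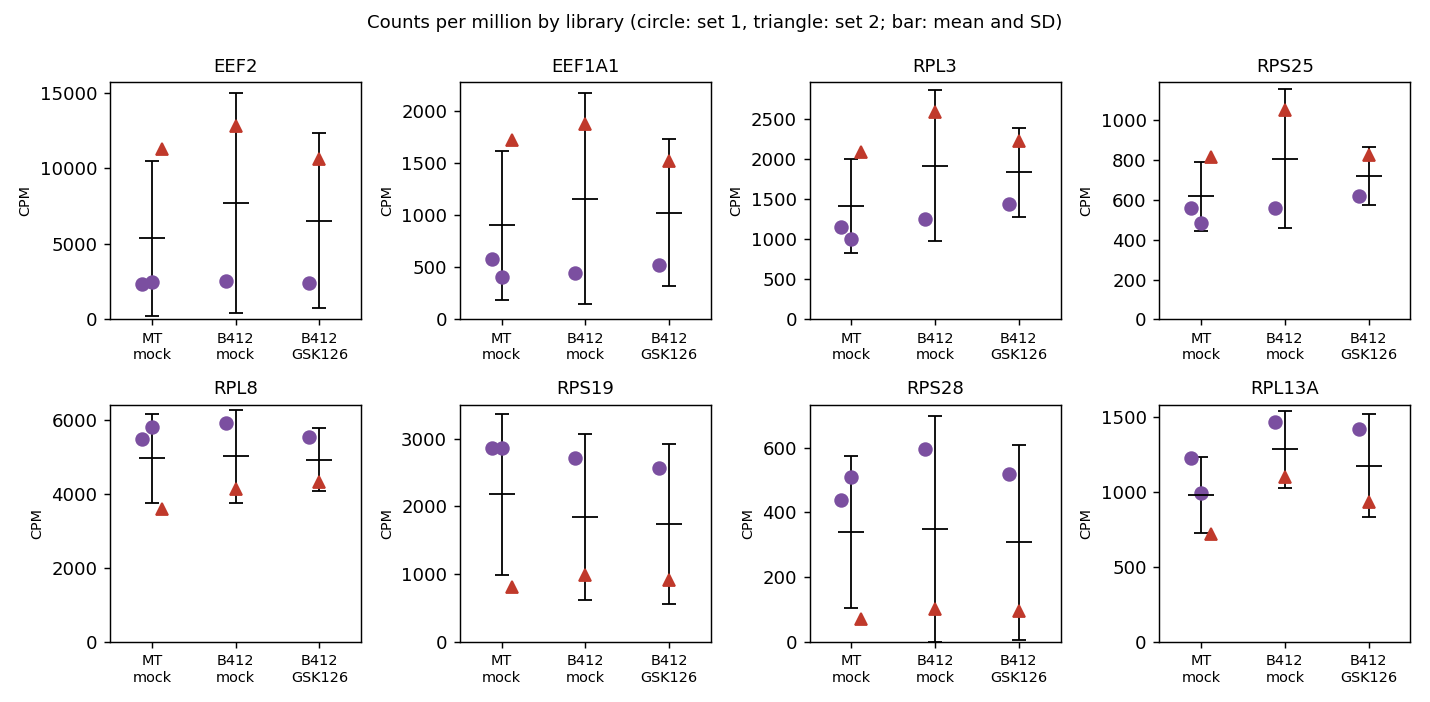
CPM in each library for 8 members, by group, with set 1 as circles, set 2 as triangles and the mean with SD of each group as a bar (n = 3, 2 and 2). In EEF2, EEF1A1, RPL3 and RPS25 the triangles lie above the circles, in RPL8, RPS19 and RPS28 below, and in RPL13A below within each group.

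Coding length went with the set difference. The 28 members with a coding length under 400 bases had a median of -1.22, the 30 from 400 to under 600 had -0.86, the 22 from 600 to under 1000 had -0.49, and the 6 of 1000 or more had 0.34. All tested genes with a length showed the same order with smaller sizes: -0.61 over 597 genes, -0.36 over 910, -0.13 over 2180 and 0.28 over 7811. Across the 86 genes the set difference and log2 coding length had a Pearson r of 0.528 and a Spearman rho of 0.468, and without the elongation factors, over 81 genes, 0.479 and 0.453. Over all 11498 genes with a length they were 0.175 and 0.201. GC content of the coding sequence had an r of -0.07 across the members and -0.229 across all genes. EEF1D, whose longest principal isoform is 1941 bases, and RPS25, at 375 bases, were on the other side of this order. The isoforms used in these cells were not measured, so the place of EEF1D depends on the isoform taken. Members with a TOP tract had a median set difference of -0.88 (53 genes) and those without had -0.63 (16 genes), and both groups held genes above 0. The part of length in the difference between sets was not tested.

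**Figure D4:**
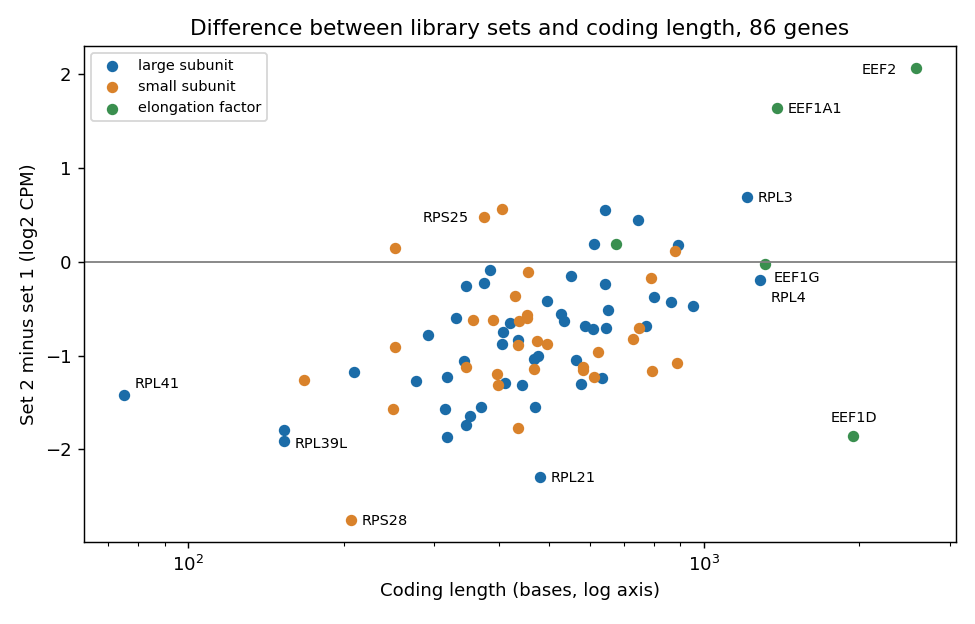
Set 2 minus set 1 difference (log2 CPM, mean over 3 groups) against coding length in bases (log axis) for the 86 genes, coloured by class. The genes under 400 bases have a median of -1.22 and reach down to -2.75 (RPS28), and EEF2, EEF1A1 and RPL3 lie above 0 at over 1000 bases.

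The comparison of the PLZF/RARA line with its parent asks whether translation genes differ with the fusion. B412_mock libraries had slightly higher levels than MT_mock libraries of the same set in most of the 86 genes, and no member passed the test. Without a library-set term, edgeR's quasi-likelihood test called 0 of 86 at an adjusted p of 0.05, against a background of 0% of 13521 genes, with 0 members at an unadjusted p under 0.05, and DESeq2 and limma-voom also called 0. With the set as a term it called 0 of 86 against 2.35% of all genes, with 24 members at an unadjusted p under 0.05, all higher in B412_mock. Over all genes that unadjusted number was 1972, of which 821 were higher. Fitted with the term, limma-voom called 0 members and DESeq2 called 2, where they called 244 and 688 of all 13521 genes.

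With the term, 82 of the 86 differences were positive, with a median of 0.21 against -0.01 over all genes. Without it, 60 were positive and the median was 0.07. The term left the same direction under each of 4 scalings, with 82 or 83 members positive. Within the sets, 67 of 86 were higher in B412_mock in both sets, where 31.8% of all genes were, and 0 were lower in both, where 31.9% of all genes were. The median was 0.13 in set 1 and 0.31 in set 2. Set 2 has a single library in each group, so that difference has no replicate of its own. The 86 genes took 11.3% and 11.4% of counts in the set 1 MT_mock libraries and 12.4% in the B412_mock library of that set, and 8.1% against 10.2% in set 2. Members are not independent replicates: they share libraries, scaling and, in part, reads.

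RPL13A, a large subunit protein that also acts in the interferon-gamma translational silencing complex, had the lowest p. Its levels were 1229, 990 and 717.5 CPM in MT_mock (979 ± 256, SD, n = 3), 1466 and 1102 in B412_mock (1284 ± 257.5, SD, n = 2) and 1419 and 934 in B412_GSK126 (1176 ± 343, SD, n = 2). The B412_mock value was above each MT_mock value of its own set, although the groups overlapped across sets. The log2 difference with the term was 0.48 (SE 0.128, a fold of 1.4), and edgeR's adjusted p was 0.0817. It passed in 3 alternatives with the term, by DESeq2 (adjusted p = 0.0365), with no filter on low counts in edgeR (adjusted p = 0.0234) and without MT_mock replicate 1 in edgeR (adjusted p = 0.0259). Over all alternatives the adjusted p ran from 0.0234 to 1. RPL13A has 10 named pseudogenes, 1 of which, RPL13AP5, is listed above.

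Other large subunit members had similar sizes. RPL23A, which sits near the exit of the nascent chain tunnel and has 91 named pseudogenes, had 373, 381 and 191.5 CPM in MT_mock and 481 and 290 in B412_mock. Its log2 difference with the term was 0.44 (SE 0.131, edgeR adjusted p = 0.118), and DESeq2 with the term gave an adjusted p of 0.0455, the lowest of its alternatives, which reached 1. The 24 members at an unadjusted p under 0.05 were 17 large subunit genes (among them RPL10, RPL10A, RPL12, RPL13A, RPL19, RPL23A, RPL27A, RPL28, RPL29, RPL32, RPL35, RPL36A, RPL37 and the stalk genes RPLP0, RPLP1 and RPLP2), 6 small subunit genes (among them RPS6, RPS9, RPS15, RPS16 and RPS28) and EEF1D, with log2 differences from 0.27 to 0.54. RPLP1 and RPL28 both had 0.36 (edgeR adjusted p = 0.121 for each), and RPL36A had 0.54 (SE 0.225, edgeR adjusted p = 0.283) on 107 to 468 counts per library.

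Of the small subunit genes, RPS27 had 0.72 (SE 0.349, edgeR adjusted p = 0.373) on 54 to 132 counts, and RPS28 had 0.38 (edgeR adjusted p = 0.22). RPS6 had 0.28 (edgeR adjusted p = 0.248), and RPS3, nearly level in set 1 with 0.03, had 0.11 (edgeR adjusted p = 0.707).

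The elongation factors were less uniform. EEF1D was higher in B412_mock by 0.34 within set 1 and 0.40 within set 2, with 0.36 in the fit with the term (SE 0.115, edgeR adjusted p = 0.151). EEF1B2 had 0.25, EEF2 0.11 and EEF1G 0.07. EEF1A1 had -0.03 and was the only elongation factor with a negative value in that fit. RPL10L at -0.32, RPS26 at -0.05 and RPS27L at -0.01 were the other members below 0.

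**Figure D5:**
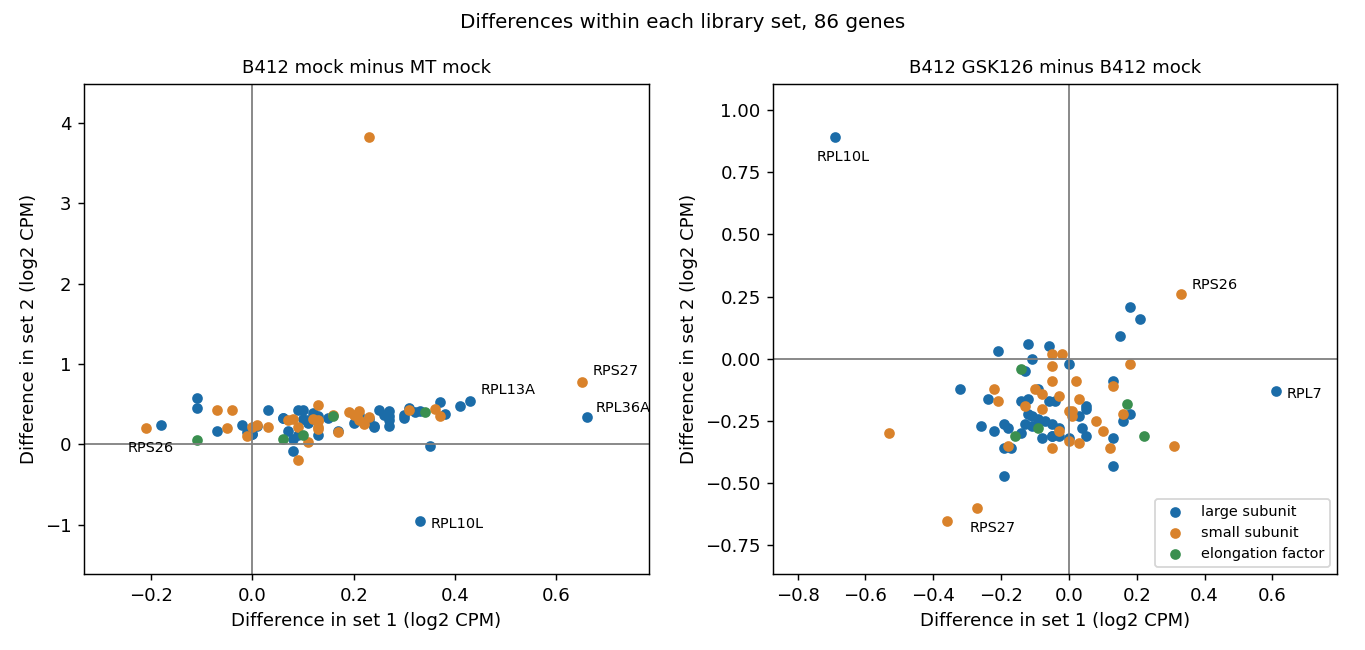
Difference in log2 CPM within set 1 (horizontal axis) and within set 2 (vertical axis) for the 86 genes, B412_mock minus MT_mock at left and B412_GSK126 minus B412_mock at right. At left 67 points lie above 0 on both axes and 0 below on both, and at right 48 lie below 0 on both and 4 above.

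GSK126 was compared with mock treatment within B412 cells, to ask what EZH2 inhibition does to these genes. Most members had lower values with GSK126, by small amounts, and no member passed the test. edgeR's quasi-likelihood test called 0 of 86 members without the term and 0 with it, against 0% of all genes in either fit. At an unadjusted p under 0.05 there were 0 members without the term and 4 with it, where 32 and 464 of all 13521 genes were. The 4 were RPL27A, RPLP1, RPLP2 and RPS29, all lower with GSK126. Of the 464, 298 were higher. DESeq2 and limma-voom called 0 members with or without the term. The median difference was -0.12 with the term against 0.01 over all genes, and 76 of 86 were negative. Within sets, 48 members were lower with GSK126 in both, where 28.4% of all genes were, and 4 were higher in both, where 28.3% were. With DESeq2's size factors in place of TMM, 58 were lower in both, against 30.5% of all genes. The medians were -0.05 in set 1 and -0.22 in set 2, each from 1 library per group. These values share the B412_mock libraries with the comparison of the lines, so the opposite signs of the 2 comparisons are not separate evidence: beside the line medians of 0.13 and 0.31 in sets 1 and 2 stand -0.05 and -0.22 for GSK126.

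RPS29, a zinc-binding protein of the small subunit head, had 359 and 171 CPM in B412_mock and 253 and 140 with GSK126, lower in both sets. Its log2 difference with the term was -0.41 (SE 0.16, unadjusted p = 0.0252, edgeR adjusted p = 1). RPL27A had 1125 and 582 CPM in B412_mock and 1001 and 422 with GSK126, a difference of -0.33 (SE 0.137, unadjusted p = 0.0325, edgeR adjusted p = 1). RPLP1 and RPLP2, which bind each other in the stalk, each had -0.27. RPS27 had -0.45 (SE 0.38). At the other end were RPS26 at 0.30, RPL7 at 0.23, RPL17 at 0.20 and RPL6 at 0.18. All 5 elongation factors had negative values with the term, from -0.24 for EEF1G to -0.01 for EEF1B2.

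Between B412_GSK126 and MT_mock the members had small differences of either sign, and no member passed the test. edgeR's quasi-likelihood test called 0 of 86 members without the term, against 0% of all genes, and 0 with it, against 1.9% of all genes. At an unadjusted p under 0.05 the members were 0 and 6, where 269 and 2028 of all 13521 genes were. All 6 were higher in B412_GSK126, and neither DESeq2 nor limma-voom called a member. With the term the median was 0.09 against 0.00 over all genes, and 68 of 86 were positive. Without it the median was -0.01, with 39 positive and 47 negative. The medians within sets 1 and 2 were 0.13 and 0.08. RPL36A had a log2 difference of 0.44 with the term (SE 0.225, edgeR adjusted p = 0.39). RPL10 had 794, 796 and 742.5 CPM in MT_mock and 1050 and 939 in B412_GSK126, with a log2 difference of 0.33 with the term (SE 0.12, edgeR adjusted p = 0.212). RPL6 also had 0.33 (edgeR adjusted p = 0.39). EEF1D had 0.27 (edgeR adjusted p = 0.297). The lowest values were those of RPL10L at -0.21, RPS27A, a fusion of ubiquitin and a small subunit protein, at -0.18, EEF1G at -0.17 and RPL11, which can bind and restrain MDM2, at -0.16.

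Ribosomal proteins with paralogues add a question of dosage between copies. RPL39L, a copy of RPL39 at the nascent chain tunnel, held 59.6% to 65.5% of the counts of the pair in the 7 libraries. The share in B412_mock replicate 2 was 59.6% (95% Wilson interval 56.8% to 62.3%), the lowest, and the other 6 lay between 63.9% and 65.5%. The coding sequences of RPL39 and RPL39L have equal length. RPL39 has 15 named pseudogenes, as many as RPS27, and RPL39L has 0, so the level of RPL39 and the share of the pair are uncertain. RPL36AL held 88.8% to 93.9% of its pair and RPS27L 84.9% to 95.9% of its pair, where RPL36A and RPS27 are likewise among the genes with uncertain counts. RPL3L, a form of RPL3 typical of muscle, held 0 or 1 count in each library, and EEF1A2, the neuronal and muscle form of EEF1A1, had 0 counts in 6 libraries and 1 in B412_GSK126 replicate 2. The upper 95% Wilson bound on the EEF1A2 share was at most 0.0682% of the pair, in B412_mock replicate 1. RPL22L1 held 4.16% to 5.68% of its pair in set 1, 5.55% in MT_mock replicate 3, and 2.1% and 2.26% in the set 2 libraries of B412_mock and B412_GSK126. Its difference between lines was 0.16 in set 1 and -1.02 in set 2, with -0.33 in the fit with the term (SE 0.36, edgeR adjusted p = 0.739). These intervals and limits cover counting error only.

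Genes around this module were read from lists chosen alongside it. Of 15 other mRNAs known to carry a TOP tract, VIM was called higher in B412_mock than in MT_mock with the term, and the other 14 passed no test. VIM, the intermediate filament protein vimentin, had 362, 467 and 778 CPM in MT_mock and 750 and 1462 in B412_mock, with a log2 difference of 0.87 (SE 0.148, edgeR adjusted p = 0.0111). It was also called higher in B412_GSK126 than in MT_mock with the term, by 0.80 (SE 0.147, edgeR adjusted p = 0.022). Without the term edgeR's adjusted p was 1. Between the lines with the term, all 15 had values of 0 or above, with a median of 0.20, beside 0.21 for the members and -0.01 for all genes. With GSK126 their median was -0.14, and 0 were called by edgeR, DESeq2 or limma-voom, with 1 at an unadjusted p under 0.05 in edgeR with the term. FAU, a ribosomal protein that is made fused to a ubiquitin-like domain and lies outside the naming rule, had 0.08 between the lines.

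Of 28 initiation factor genes 0 were called in any comparison by edgeR or limma-voom with or without the term. At an unadjusted p under 0.05 in edgeR with the term there were 3 between the lines, 0 with GSK126 and 3 between B412_GSK126 and MT_mock, and DESeq2 with the term called 1 between the lines. Their median was 0.04 between the lines and 0.03 with GSK126. EIF5B, which joins the subunits, was 1883 and 1806 CPM in set 1 MT_mock libraries and 138 in set 2, with a set difference of -3.92, lower than that of any member. EIF4H, a cofactor of the helicase EIF4A, had the highest set difference of the 28 at 2.19, with 70.5, 85.5 and 419.9 CPM in the 3 MT_mock libraries. Among the 12 other elongation and release factor genes, edgeR with the term called 1, GSPT2, in both comparisons with MT_mock. DESeq2 without the term also called 1 gene of this list in each of those comparisons. GSPT2, a retrogene copy of the release factor gene GSPT1, was counted 73 and 37 times in the B412_mock libraries, 94 and 66 times with GSK126, and 0, 0 and 1 times in MT_mock. The edgeR adjusted p for B412_mock against MT_mock was 0.00209 with the term and 0.441 without it. For B412_GSK126 against MT_mock it was 0.00117 with the term and 0.462 without it.

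Of 12 genes that regulate the translation of these mRNAs, among them MTOR, RPTOR, LARP1, EEF2K, TSC1 and TSC2, 0 were called in any comparison by edgeR or limma-voom, with 0, 0 and 1 at an unadjusted p under 0.05 in edgeR with the term. DESeq2 with the term called 1 between B412_GSK126 and MT_mock. EIF4EBP1, the translation repressor that mTOR switches off, had 346, 383 and 193 CPM in MT_mock, 440 and 244.5 in B412_mock, and 532.5 and 290 in B412_GSK126. Its difference between B412_GSK126 and MT_mock was 0.53 (edgeR adjusted p = 0.0693 with the term). RHEB, the GTPase that activates mTOR, had -0.30 between the lines (edgeR adjusted p = 0.483). The 77 mitochondrial ribosomal protein genes, which serve a separate ribosome, did not share the small shift of the cytosolic genes between lines: 41 were positive with the term and the median was 0.01, beside 82 of 86 and 0.21 for the members. With GSK126, 60 of the 77 were positive and the median was 0.14, where the members had 10 of 86 and -0.12. Between the library sets the mitochondrial genes had a median of -0.71, with 57 of 77 below 0, beside -0.80 and 74 of 86. edgeR and limma-voom called 0 mitochondrial ribosomal protein genes in any comparison, with 4, 3 and 10 at an unadjusted p under 0.05 in edgeR with the term, and DESeq2 with the term called 4 between B412_GSK126 and MT_mock. The difference between the 2 families was not tested.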

How the data were processed

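RNA-seq of 7 libraries of U937 MT and B412 cells was used as the gene counts the authors deposited, whole-number counts per symbol for each library. Per the labels' protocols, SMART-Seq cDNA was sheared and made into libraries with a kit that does not mark strand. FastQC, Subread, featureCounts and hg19 are named in the submitters' processing notes; their versions, the annotation and the rule for multiply mapped reads were not stated there.

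Genes with too few counts were removed (edgeR filterByExpr, minimum count 10, minimum total 15), leaving 13521. The main test was edgeR 4.0.16 (R 4.3.3) quasi-likelihood with TMM scaling, robust fitting and all 7 libraries in 3 group means, two-sided, Benjamini-Hochberg over all genes tested, threshold 0.05. The spread between libraries was 58.3% (biological coefficient of variation), and 21.9% with the library set as a term, so both fits are given; the sets come from the sign of principal component 1 of log2 CPM (prior count 2) without the 86 genes. DESeq2 1.42.0, limma 3.58.1, other scalings, no filter and leaving out each library were alternatives. The scripts were tested on simulated data. CPM in the text are counts scaled to a library total of 1000000. Coding lengths come from GENCODE v29 principal isoforms, the longest where several rank equally.

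The members, lists, tests and named genes were chosen with earlier results of these data known. Values are given for the elongation factors, the most abundant members, the 4 highest and lowest in each comparison, the 5 highest and lowest between sets, and paralogue pairs. RPS19, RPS25, RPLP2, RPL23A and RPL22L1 were added after their values were seen. Y-linked genes were left out, and some genes that this rule names are not reported here.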

Additional observations from a re-analysis of the deposited data

How the results depend on the processing

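The number of members called, 0 by edgeR in each comparison, was 0 under every alternative run for B412_GSK126 against B412_mock. For B412_mock against MT_mock it was 2 by DESeq2 with the library-set term (RPL13A and RPL23A), where 688 of all 13521 genes were called. It was 2 with the term and no filter on low counts (RPL13A among them), against 881 of 18734 genes. With an MT_mock library left out it was 0 or 1. The call there was RPL13A, without MT_mock replicate 1 and with the term, against 584 of 13351 genes. For B412_GSK126 against MT_mock it was 1 with the term and no filter, against 892 of 18734 genes, and 0 otherwise. The median over the members, 0.07, -0.11 and -0.01 in the 3 comparisons, ran from -0.34 to 0.37, from -0.58 to 0.31 and from -0.56 to 0.32 when each library was left out; the extremes came from fits without the term, where leaving out a library changes the balance of the sets between groups. With the term the same medians ran from 0.13 to 0.31, from -0.21 to -0.05 and from 0.04 to 0.15. The median difference between sets was -0.62 with library totals only, and -0.81 with size factors or with TMM computed without the members. With the replicate block 0 members were called and the medians were -0.25, -0.12 and -0.35; the numbers do not pair the libraries, since the deviations of MT_mock replicate 2 and B412_mock replicate 2 had r = -0.634. Over all genes, the calls with the term, 318, 0 and 257, ran from 33 to 881, from 0 to 55 and from 72 to 892 over the alternatives with the term. Depth was alike in all libraries. For the lines the median SE of a member was 0.124 with the term and 0.478 without it, beside median differences of 0.21 and 0.07. What limits the calls was not tested.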
